A study of Mus musculus with 8 samples.

Results

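The genes described here are 10 mouse genes that make or break down prostaglandins and leukotrienes: Pla2g4a, Ptgs1, Ptgs2, Ptges, Ptgis, Hpgd, Akr1c18, Alox5, Alox5ap and Ltc4s. They were chosen by name, and a probe was counted as theirs when its accession mapped to one of them, which gave 12 probes among 39429. All 10 genes had a probe, out of 20886 named genes on the array. RNA was taken from 3T3-L1 pre-adipocytes (spelled 3T3L-1 in the sample labels), an embryonic mouse fibroblast line, and from Raw264.7 cells, a mouse macrophage line. The lines had been grown together for 48 h in an indirect co-culture, separated by the membrane of a culture insert. The study's methods describe a separate set-up for each line, with different cell numbers, and RNA taken from the cells of the lower well. Each line had 1 array labelled cortisol (C, 100 µM), 1 labelled serotonin (S, 100 µM), 1 labelled cortisol-serotonin (CS, 100 µM of each hormone) and 1 with no treatment (NT). All of these cells were co-cultured, so cells grown alone are not part of the comparison, and each line is a single established line. On each of the 8 two-colour Agilent arrays the cells were labelled with Cy5 and a common reference RNA with Cy3.

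Prostaglandins and leukotrienes are signalling lipids made from arachidonic acid. Cytosolic phospholipase A2, encoded by Pla2g4a, frees the fatty acid from membranes. The cyclooxygenases Ptgs1 and Ptgs2 turn it into prostaglandin H2, and terminal synthases such as Ptges and Ptgis make prostaglandin E2 and prostacyclin from that intermediate. In the other branch 5-lipoxygenase (Alox5), helped by its activating protein (Alox5ap), makes leukotriene A4, which Ltc4s joins to glutathione. Prostaglandin E2 and prostacyclin are known to act on fat cell precursors, and leukotrienes are known as products of myeloid cells.

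Values are log2 ratios of the Cy5 sample to the Cy3 reference after background correction and loess within each array, so that 1 unit is a 2-fold difference, and they are compared between arrays for 1 gene at a time. The median spot gave 62 to 79 units of Cy5 on the 3T3-L1 arrays and 51 to 103 on the Raw264.7 arrays, the highest being the array labelled serotonin, over a background of 26.5 to 28. Between 43.7% and 47.8% of spots were well above background in both channels. The lowest correlation of log ratios between 2 arrays was 0.897 within 3T3-L1, 0.949 within Raw264.7 and -0.225 between the lines, over 13173 probes. Of the markers well above background on all 8 arrays, all 9 fibroblast and pre-adipocyte genes had a higher ratio in 3T3-L1 and all 9 macrophage genes in Raw264.7. In the Cy5 channel alone Aif1, 1 of these macrophage genes, ran the other way, at a mean log2 level of 8.77 in 3T3-L1 and 8.28 in Raw264.7. By the fitted difference Fn1, Fstl1 and Col5a1 stood highest and Pdgfra, Postn and Sparc lowest of the fibroblast genes, and of the macrophage genes Tyrobp, Laptm5 and Ptprc lay furthest apart and Adgre1, Mpeg1 and Aif1 nearest. Cy5 of Pdgfra, Postn and the Sparc probe used was not well above background on any Raw264.7 array. That of Adgre1 and of 1 of 2 Mpeg1 probes was not on any 3T3-L1 array. Background therefore limits the differences and ranks of these genes. Among the mature adipocyte markers Adipoq, Lep, Cidec, Plin1, Cfd and Cebpa were not well above background in 3T3-L1, and Fabp4, Lpl and Pparg were. Fabp4 differed from NT by 2.25 on the 3T3-L1 array labelled serotonin and by 2.46 on that labelled cortisol-serotonin. Glucocorticoid targets ran against the hormone labels of the 3T3-L1 arrays: Fkbp5, a classical glucocorticoid target, differed from NT by 0.14 on the array labelled cortisol, 1.32 on that labelled serotonin and 1.45 on that labelled cortisol-serotonin. Zbtb16, another such target, differed by -0.19, 1.94 and 1.96 on the same arrays, Tsc22d3 by -1.06, 0.41 and 0.77, and Per1 by -0.41, 0.38 and 0.62. Of the other listed glucocorticoid targets, Pdk4 was 2-fold higher on the 3T3-L1 arrays labelled serotonin and cortisol-serotonin, Errfi1 was 2-fold lower on that labelled cortisol, and Ddit4, Lcn2 and Mt2 were 2-fold higher on the Raw264.7 array labelled serotonin. Of these targets passing between the lines, Angptl4, Il1r1 and Pdk4 had the highest fitted difference, 3T3-L1 minus Raw264.7. Pdk4 was not well above background in Cy5 on any Raw264.7 array and is a bound, at least 9.08-fold. Nfkbia, Fkbp5 and Ddit4 had the lowest, with Nfkbia and Fkbp5 higher in Raw264.7 and Ddit4, at 0.93, higher in 3T3-L1. Each array is therefore called by its label throughout, and no difference is assigned to a hormone.

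The pair of cell lines differed in the level of both arms of the pathway. Of the 10 enzymes, 7 gave a signal well above background in sample and reference on every one of the 8 arrays, and all 7 passed the test between the lines: Ptgs1, Ptgs2, Ptges and Ptgis were higher in 3T3-L1, and Pla2g4a, Alox5ap and Ltc4s were higher in Raw264.7 (limma, Benjamini-Hochberg adjusted p under 0.05 over 10692 genes). Most of the 9041 genes measured on all arrays passed the same test, 75.7% of them, with 38.2% higher in 3T3-L1 and 37.5% higher in Raw264.7, so the count of 7 by itself says little about these enzymes. The 4 arrays of one line did not overlap those of the other for any of the 7, against 71.2% of these genes. Their median difference, 3T3-L1 minus Raw264.7, was 3.02, beside 0.02 over the genes measured on all arrays. With 4 enzymes higher in 3T3-L1 and 3 in Raw264.7, this median is the value of Ptgs2 and not a shift shared by the 7. All 7 were thus detected in both lines, at different levels. Akr1c18 and Alox5 were above background in 1 line each and are given as bounds, and Hpgd in neither. The spread within a line comes from 4 arrays of different treatment. The lines were hybridised on separate slides and, by the study's methods, grown in separate set-ups, so line, slide and set-up cannot be told apart. In RNA of whole cultures fewer expressing cells and less RNA per cell cannot be told apart either.

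**Figure D1:**
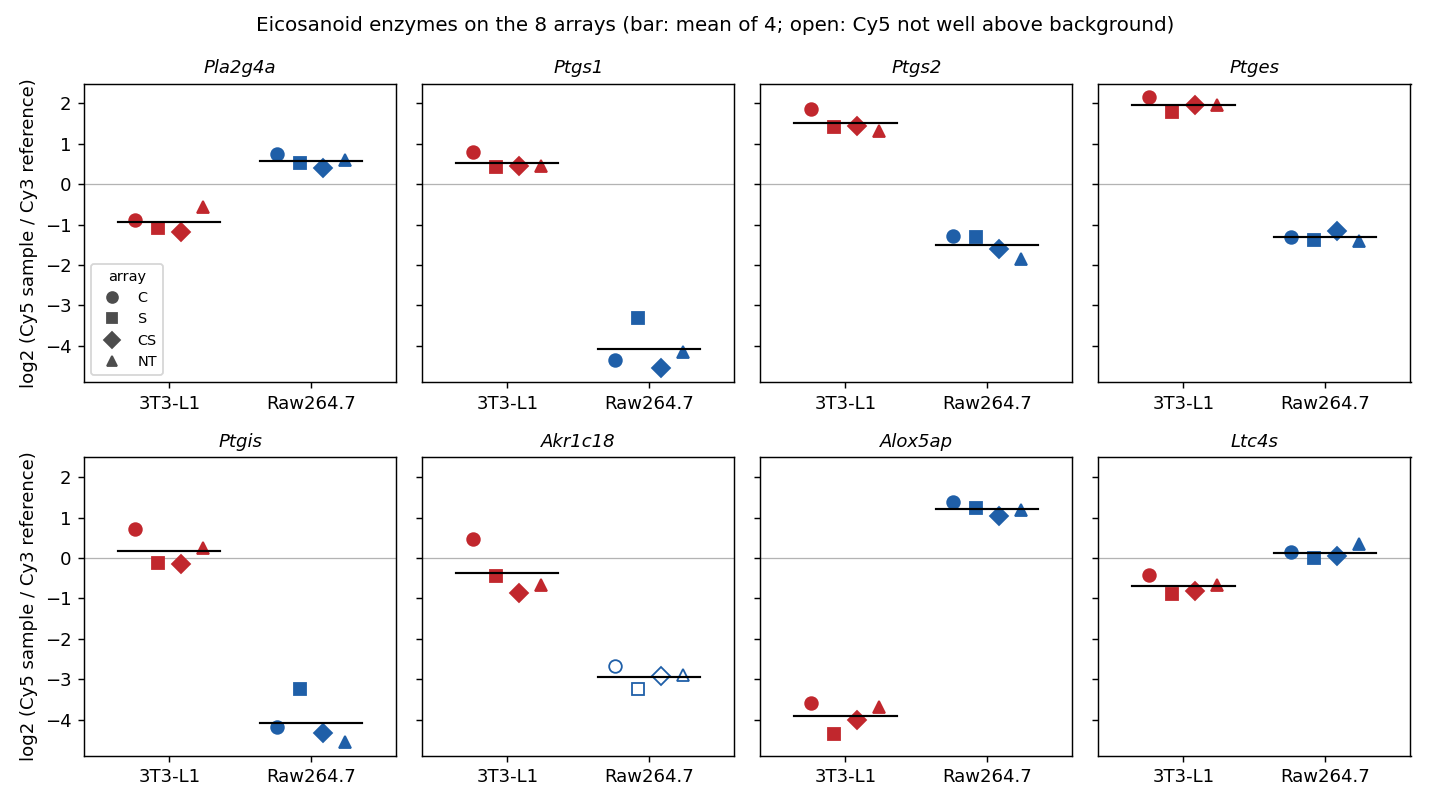
Log2 ratio of Cy5 sample to Cy3 reference for 8 enzymes on the 4 arrays of 3T3-L1 (red) and the 4 arrays of Raw264.7 (blue). Symbols give the array label, bars the mean of 4 arrays, and open symbols a Cy5 signal not well above background (Akr1c18 in Raw264.7). The lines do not overlap for the 7 enzymes measured on all arrays.

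The sequences before the start sites of 5 enzymes are shown so that the promoters of the prostaglandin and the leukotriene genes can be read side by side. They are RefSeq's 250 bases upstream of the start (build GRCm38.p6), written 5′ to 3′ on the gene's own strand, with capitals marking matches to the motifs searched. A promoter was found for 8 of the 10 enzymes (9 promoters, Pla2g4a having 2), and Ptgis and Alox5ap are named only. Those of Pla2g4a, Akr1c18 and Hpgd were searched and are not printed. The first 3 belong to enzymes higher in 3T3-L1 and the last 2 to enzymes higher in Raw264.7.
Ptgs1, chr2:36230176-36230425, strand plus: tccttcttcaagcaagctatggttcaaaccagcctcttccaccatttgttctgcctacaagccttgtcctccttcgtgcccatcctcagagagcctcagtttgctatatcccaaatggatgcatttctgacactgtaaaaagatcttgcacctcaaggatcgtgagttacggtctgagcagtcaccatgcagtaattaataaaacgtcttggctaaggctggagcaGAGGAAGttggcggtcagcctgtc
Ptgs2, chr1:150099781-150100030, strand plus: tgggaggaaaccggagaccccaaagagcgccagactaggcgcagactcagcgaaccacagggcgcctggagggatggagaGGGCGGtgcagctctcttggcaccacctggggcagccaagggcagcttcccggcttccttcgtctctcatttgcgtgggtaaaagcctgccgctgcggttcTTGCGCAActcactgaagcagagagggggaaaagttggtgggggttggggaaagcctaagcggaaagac
Ptges, chr2:30903298-30903547, strand minus: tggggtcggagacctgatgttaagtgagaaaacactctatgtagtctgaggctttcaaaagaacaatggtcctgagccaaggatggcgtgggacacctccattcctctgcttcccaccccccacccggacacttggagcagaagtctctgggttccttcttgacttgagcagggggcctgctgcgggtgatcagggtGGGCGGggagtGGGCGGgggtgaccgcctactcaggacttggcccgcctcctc
Alox5, chr6:116461179-116461428, strand minus: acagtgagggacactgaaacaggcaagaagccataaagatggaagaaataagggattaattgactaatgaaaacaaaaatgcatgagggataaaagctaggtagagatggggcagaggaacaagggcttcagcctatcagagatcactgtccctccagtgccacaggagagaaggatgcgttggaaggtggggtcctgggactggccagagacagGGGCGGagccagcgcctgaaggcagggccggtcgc
Ltc4s, chr11:50238533-50238782, strand minus: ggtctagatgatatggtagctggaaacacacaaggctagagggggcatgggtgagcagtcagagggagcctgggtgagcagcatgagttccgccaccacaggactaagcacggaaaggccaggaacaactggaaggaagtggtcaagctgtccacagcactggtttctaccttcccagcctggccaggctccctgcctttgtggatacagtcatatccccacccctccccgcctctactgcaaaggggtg
Both strands were searched for the TATA box (TATAAA), the E-box (CACGTG), the cAMP response element core (TGACGT), the core bound by the myeloid factor PU.1 (GAGGAAG), the GC box (GGGCGG) and a C/EBP site (TTGCGCAA). Overlaps between motifs were allowed. The C/EBP letters occurred in the Ptgs2 promoter, at bases -69 to -62 from the start, and in 0.165% of all 32817 promoters of this length. Ptges held a pair of GC boxes at -53 and -42, Ptgs2 had 1 at -170 and Alox5 1 at -35, and 32.7% of all promoters held this motif, beside 5 of the 9 promoters of these enzymes. The PU.1 letters, in 10.6% of all promoters, were found at -24 in Ptgs1, an enzyme lower in the macrophage line. None of the searched letters was in the Ltc4s window, and those of the E-box and of the cAMP core, in 6.02% and 6.46% of all promoters, were in none of the 9. The TATA letters, in 12.4% of all promoters, were found in 1 of the 9, at -200 to -195 on the opposite strand in the second promoter of Pla2g4a. A match describes the letters and is not evidence of binding.

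Pla2g4a, the phospholipase at the head of the pathway, was higher in the macrophages. Its log2 ratio was -0.89, -1.09, -1.19 and -0.56 on the 3T3-L1 arrays labelled C, S, CS and NT, against 0.75, 0.54, 0.41 and 0.60 on the Raw264.7 arrays in the same order. All 4 pre-adipocyte arrays lay below all 4 macrophage arrays, with NT the highest of the 3T3-L1 arrays. The line difference was -1.51 (SE 0.14, limma adjusted p = 2.45e-06), a level 2.84-fold higher in Raw264.7. Pla2g4a and Ptgs2 lie near each other on chromosome 1, at bases 149829618-149961290 and 150100031-150108234, and their difference between the lines ran in opposite directions.

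Of the other phospholipases A2, 17 of 19 listed genes had a probe and 5 were measured on all 8 arrays, of which 3 were higher in 3T3-L1 and 2 in Raw264.7. The lysosomal enzyme Pla2g15 differed by 0.92 (SE 0.10) and the calcium-independent Pla2g6 by 0.83 (SE 0.15), against -1.16 (SE 0.12) for the secreted Pla2g2e and -0.64 (SE 0.14) for the cytosolic Pla2g4b. Pla2g7, which breaks down platelet-activating factor, was not well above background in Cy5 on any Raw264.7 array, and its 2 probes put it at least 3.69-fold and 6.45-fold higher in 3T3-L1. The secreted enzyme Pla2g5 differed by -3.43 (SE 0.15) as the mean of 2 probes. Cy5 was well above background on 3 of the 4 3T3-L1 arrays for 1 probe and not on any for the other, so the value includes background signal. Among the genes that supply arachidonate or put it back into membranes, 10 were measured on all arrays, with 3 higher in 3T3-L1 and 4 in Raw264.7. Anxa1, whose protein is known to restrain phospholipase A2, differed by 1.63 (SE 0.13), and Lpcat3, a lysophospholipid acyltransferase, by 0.78 (SE 0.13). Daglb, a diacylglycerol lipase, differed by -1.40 (SE 0.08) and Elovl5, a fatty acid elongase, by -0.88 (SE 0.10). Signal was partial for Mboat1, another acyltransferase, at -4.88 (SE 0.31) with Cy5 above background on 2 of the 4 3T3-L1 arrays, and for Mgll, the monoacylglycerol lipase, at 0.75 (SE 0.15) with 1 of the 4 Raw264.7 arrays. Fads1, the desaturase that makes arachidonate, differed by -0.01 (SE 0.12), and Acsl3, Acsl1 and S100a10 did not pass either. Of these, Acsl3 had partial signal, with Cy5 well above background on 3 of the 4 Raw264.7 arrays.

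Both cyclooxygenases were expressed far more in the pre-adipocytes. Ptgs1, the constitutive form, had log2 ratios of 0.80, 0.42, 0.46 and 0.44 on the 3T3-L1 arrays labelled C, S, CS and NT, against -4.35, -3.30, -4.56 and -4.15 on the Raw264.7 arrays. The array labelled cortisol was the highest of the pre-adipocytes and the array labelled serotonin the highest of the macrophages, and the lines lay far apart. The difference was 4.62 (SE 0.23, adjusted p = 1.89e-08), or 24.6-fold. Between arrays of the same label it was 5.15 for C, 3.72 for S, 5.01 for CS and 4.59 for NT.

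Ptgs2, the inducible cyclooxygenase, had log2 ratios of 1.87, 1.41, 1.44 and 1.32 on the 3T3-L1 arrays labelled C, S, CS and NT, against -1.29, -1.30, -1.60 and -1.84 on the Raw264.7 arrays. NT was the lowest array in both lines. The line difference was 3.02 (SE 0.16, limma adjusted p = 2.32e-08), 8.09-fold higher in 3T3-L1, and 2.71 to 3.16 between arrays of the same label. Its 1 probe was printed 10 times on each array, of which 7 to 10 spots were usable, and the SD between spots was 0.05 to 0.20, so the lines were far apart on every spot. The 5 genes whose ratios followed Ptgs2 most closely over the 8 arrays, after each line's mean was taken away, were Tubgcp2 (r = 0.96), Gle1 (0.95), Ppm1g (0.94), Pex19 (0.93) and Herc6 (0.93). They are the highest of 9040 genes ranked over 8 arrays, which share slides and a reference.

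**Figure D2:**
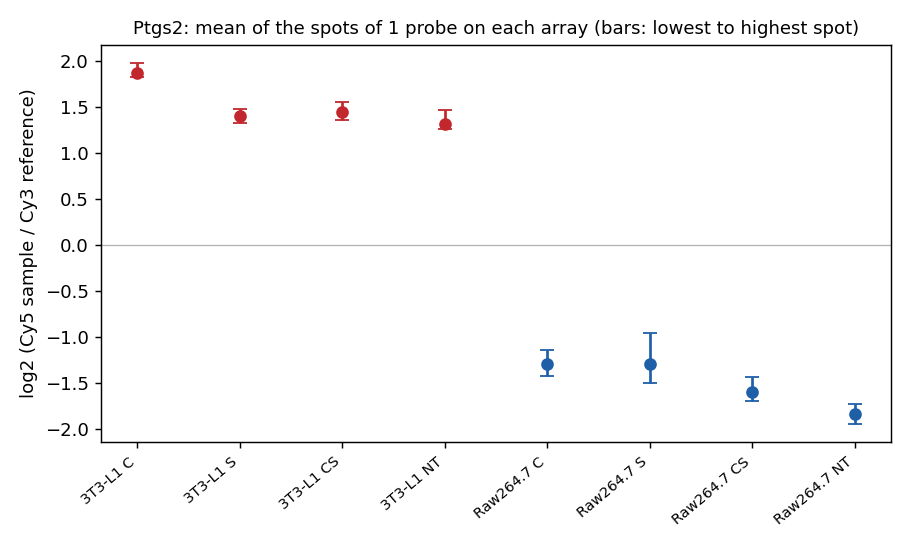
Log2 ratio of Ptgs2 on each array, 3T3-L1 (red) left of Raw264.7 (blue). Points are the mean of the 7 to 10 usable spots of 1 probe and bars run from the lowest to the highest spot. Spots of 1 array are technical repeats of 1 hybridisation. Pre-adipocyte spots run between 1.26 and 1.98 and macrophage spots between -1.95 and -0.96.

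Ptges and Ptgis, which act on the product of the cyclooxygenases, were also higher in the pre-adipocytes. Ptges, the inducible prostaglandin E synthase, had log2 ratios of 2.15, 1.78, 1.96 and 1.95 on the 3T3-L1 arrays labelled C, S, CS and NT, against -1.30, -1.39, -1.16 and -1.41 on the Raw264.7 arrays. The 4 arrays of each line lay close together. The difference was 3.28 (SE 0.10, limma adjusted p = 6.98e-10), 9.69-fold higher in 3T3-L1, and both Ptges probes ran the same way, by 3.35 and 2.55 in the Cy5 channel alone.

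Ptgis, the prostacyclin synthase, had log2 ratios of 0.71, -0.11, -0.16 and 0.24 on the 3T3-L1 arrays labelled C, S, CS and NT, against -4.18, -3.24, -4.33 and -4.55 on the Raw264.7 arrays. As for Ptgs1, the array labelled serotonin was the highest of the macrophages. The difference was 4.24 (SE 0.28, limma adjusted p = 1.37e-07), 18.9-fold, and 34.4-fold with the authors' processed ratios. Ptgis and Ptgs1 were well above background on all Raw264.7 arrays, on which the summed Cy5 level of 13 fibroblast markers was 3550 to 4895 units, highest on the array labelled serotonin, against 203294 to 230223 on the 3T3-L1 arrays. The part of fibroblast RNA in these macrophage values was not tested.

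Akr1c18, an aldo-keto reductase known as a progesterone-metabolising enzyme and a relative of prostaglandin F synthases, had log2 ratios of 0.47, -0.46, -0.86 and -0.67 on the 3T3-L1 arrays labelled C, S, CS and NT. On the Raw264.7 arrays the ratio was -2.68, -3.25, -2.91 and -2.90, but its Cy5 signal was not well above background on any of these. Its level was therefore at least 4.85-fold higher in 3T3-L1. It could enter the test only through the line in which it was high, so no p is given. Such a bound sets the mean Cy5 level of the brighter line against, per array, the higher of the dim signal and the lowest signal well above background, and dye bias is not removed because no dyes were swapped.

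Hpgd, which inactivates prostaglandins, was not well above background in Cy5 on any of the 8 arrays with either of its 2 probes. Its normalised Cy5 level was 6.11 to 6.27 on the log2 scale in 3T3-L1 and 6.21 to 6.44 in Raw264.7, where the lowest level counted as well above background was 6.34 to 6.57 over the 8 arrays. A difference in Hpgd was not detectable at these signals.

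**Figure D3:**
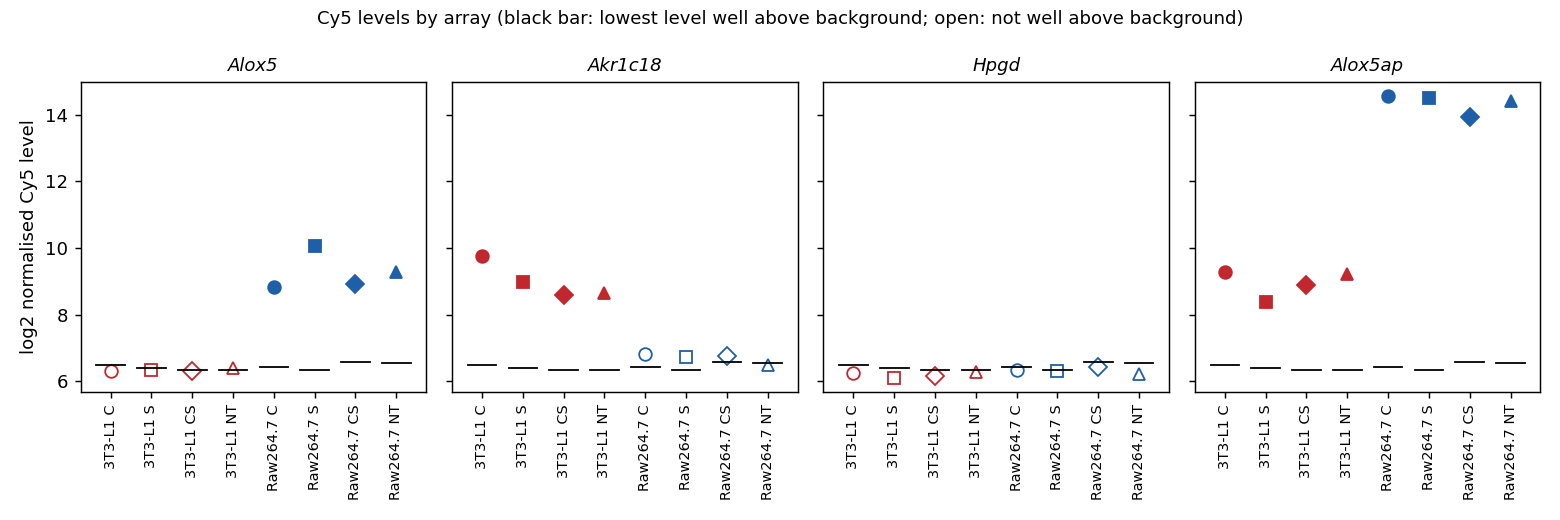
Log2 normalised Cy5 level of Alox5, Akr1c18, Hpgd and Alox5ap on each array, 3T3-L1 (red) left of Raw264.7 (blue). Black bars mark the lowest level counted as well above background on that array, and open symbols are spots not well above background. Alox5 rises clear of background in Raw264.7 alone, Akr1c18 in 3T3-L1 alone and Hpgd in neither, while Alox5ap is above background in both lines.

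Among other prostanoid enzymes, 11 of 15 were measured on all arrays, with 7 higher in 3T3-L1 and 3 in Raw264.7. Cbr2, a carbonyl reductase, differed by 4.05 (SE 0.14), Prxl2b, a prostaglandin F synthase, by 3.94 (SE 0.21, with Cy5 well above background on 2 of the 4 Raw264.7 arrays) and Akr1b7, an aldose reductase relative with prostaglandin F synthase activity, by 2.50 (SE 0.14). Ptgr2 at -1.80 (SE 0.10) and Ptgr1 at -1.38 (SE 0.09), reductases that inactivate prostaglandins, were higher in Raw264.7. Hpgds, the haematopoietic prostaglandin D synthase, was not well above background in Cy5 on any 3T3-L1 array and was at least 2.31-fold higher in Raw264.7. Akr1b3 did not pass, at 0.19 (SE 0.20).

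Alox5, Alox5ap and Ltc4s, the leukotriene enzymes among the 10, were higher in the macrophages. Alox5, the 5-lipoxygenase, was not well above background in Cy5 on any 3T3-L1 array, with levels of 6.31, 6.32, 6.30 and 6.40 on the log2 scale for C, S, CS and NT. On the Raw264.7 arrays it was well above background each time, at 8.83, 10.07, 8.93 and 9.27. The reference was not well above background for this gene on any array, so its ratio was not tested, and the Cy5 levels put Alox5 at least 7.31-fold higher in Raw264.7.

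Alox5ap, the 5-lipoxygenase activating protein, had log2 ratios of -3.60, -4.35, -4.00 and -3.69 on the 3T3-L1 arrays labelled C, S, CS and NT, against 1.39, 1.23, 1.04 and 1.18 on the Raw264.7 arrays. The difference of -5.12 (SE 0.16, limma adjusted p = 5.92e-10) made it 34.8-fold higher in Raw264.7, and no enzyme of the 7 measured on all arrays differed more. It was still well above background on all 4 pre-adipocyte arrays, where the summed Cy5 level of 13 macrophage markers was 6570 to 9296 units, against 110844 to 134714 on the Raw264.7 arrays. Of these markers 9 of 13 were well above background on the 3T3-L1 arrays, and Adgre1, Spi1, Cybb and Fcgr1 were not. The part of macrophage RNA in the pre-adipocyte value was not tested.

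Ltc4s, the leukotriene C4 synthase, had log2 ratios of -0.43, -0.89, -0.81 and -0.66 on the 3T3-L1 arrays labelled C, S, CS and NT, against 0.15, -0.01, 0.04 and 0.35 on the Raw264.7 arrays. The lines lay close together without overlap. The difference of -0.83 (SE 0.12, limma adjusted p = 0.000104), 1.78-fold higher in Raw264.7, was the smallest of the 7.

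Of 16 other lipoxygenase and leukotriene genes, 5 were measured on all arrays, with 2 higher in 3T3-L1 and 2 in Raw264.7. Mgst1, a microsomal glutathione transferase, differed by 5.50 (SE 0.15) and Dpep1, a dipeptidase of the kind that trims leukotriene D4, by 3.90 (SE 0.30). Its relative Dpep2 ran the other way, at -2.72 (SE 0.13) with its Cy5 well above background on 1 of the 4 3T3-L1 arrays, as did Mgst3 at -1.52 (SE 0.12) and Cyp4f18 at -0.73 (SE 0.21). Lta4h, which makes leukotriene B4, differed by 0.05 (SE 0.13) and did not pass.

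Of the 5 receptor genes tested, 3 were above background in 1 of the lines only. Ptgfrn, whose protein binds the prostaglandin F receptor, and Ptgfr, that receptor, were not well above background in Cy5 on any Raw264.7 array, and were at least 8.20-fold and 2.25-fold higher in 3T3-L1. Cysltr1, a receptor for cysteinyl leukotrienes, was not well above background on any 3T3-L1 array, and its 2 probes put it at least 2.24-fold and 9.39-fold higher in Raw264.7. Ptgir, the prostacyclin receptor, was measured on all arrays and differed by -2.62 (SE 0.13), and the prostaglandin E receptor Ptger4 did not pass at -0.14 (SE 0.12). The reference signal of Ptger4 was well above background on 3 of the 4 3T3-L1 arrays. Of the transporters, Abcc1, which exports leukotriene C4, at 1.72 (SE 0.10) and Abcc4 at 0.41 (SE 0.10) were measured on all arrays and higher in 3T3-L1. Slco3a1 differed by 4.72 (SE 0.10) as the mean of 2 probes, with Cy5 well above background on 3 of the 4 Raw264.7 arrays for 1 probe and not on any for the other. Slco2a1, the prostaglandin uptake carrier, was not well above background on any Raw264.7 array and was at least 3.40-fold higher in 3T3-L1.

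**Figure D4:**
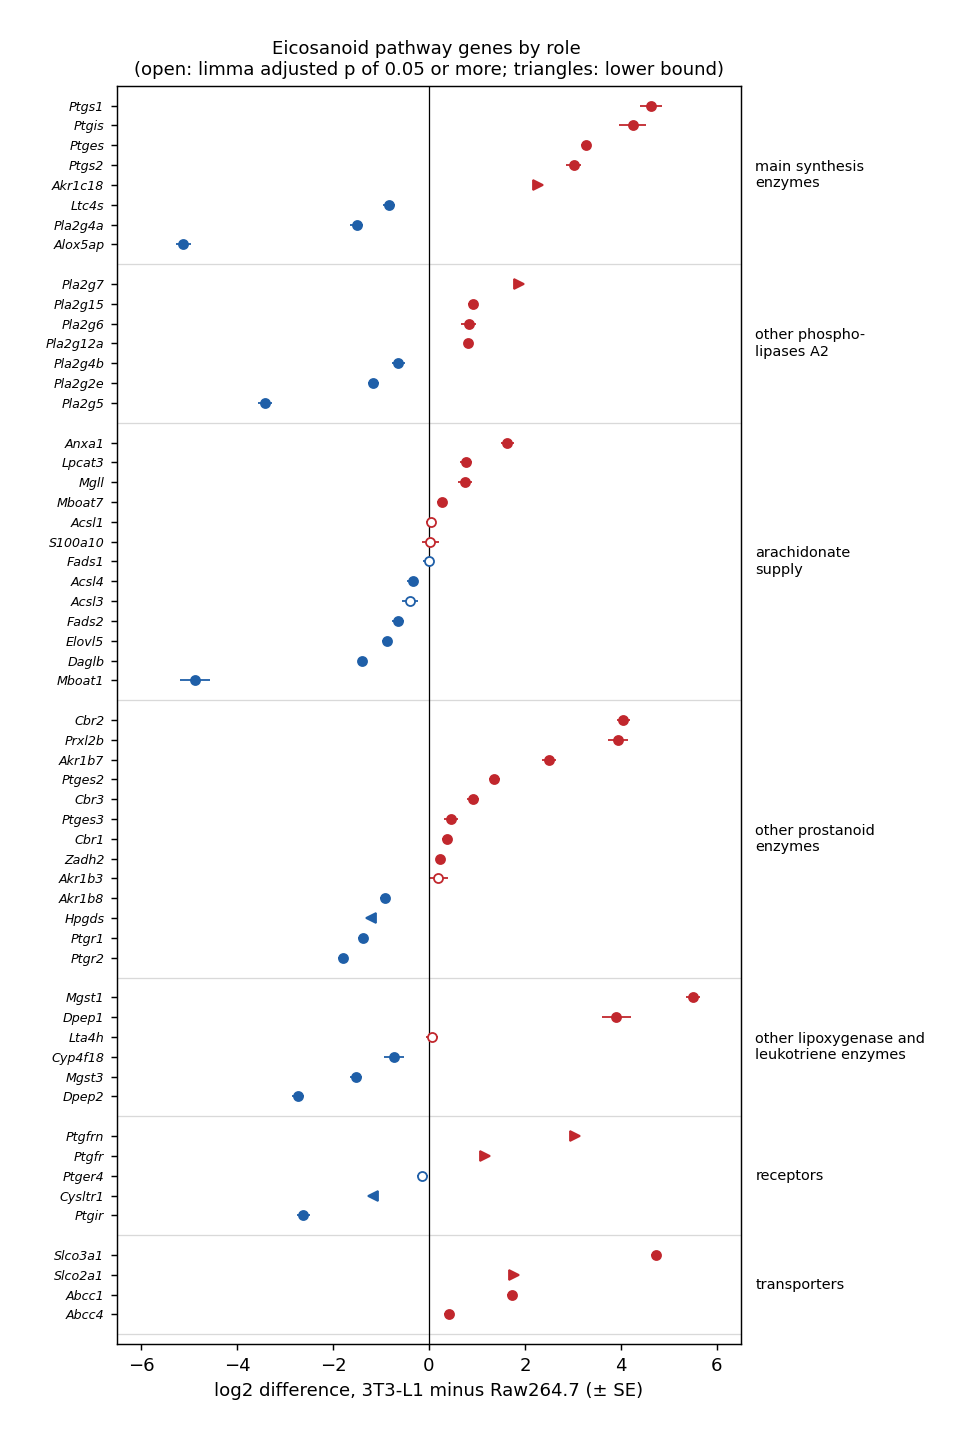
Log2 difference, 3T3-L1 minus Raw264.7, of the tested eicosanoid genes grouped by role, with bars of 1 SE (4 arrays per line). Triangles mark genes whose Cy5 was not well above background on any array of 1 line, drawn at the log2 of the lowest bound of their probes. Red points are higher in 3T3-L1, blue points higher in Raw264.7, and open points did not pass limma at an adjusted p of 0.05. Pla2g5, Mboat1, Mgll, Acsl3, Prxl2b, Dpep2, Ptger4 and Slco3a1 entered the test through 1 line only. Their points include signal not well above background, in Cy5, Cy3 or both, in the other line. Ptgs1 and Ptgis stand at 4.62 and 4.24, and Alox5ap at -5.12.

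Each treated array was then set against NT of the same line, with 1 array per condition and therefore no test. The differences within a line share its single NT array, so their agreement in direction is not repeated evidence. The error beside each value is that of the scanner software for the 2 spots, which covers technical noise within the arrays and not the spread between cultures. In 3T3-L1, 8 of the enzymes were measured. On the array labelled cortisol 1 of them differed at least 2-fold, beside 1.7% of all genes measured. This was Akr1c18, at 1.14 above NT (error 0.30), or 2.20-fold. It differed by 0.21 (error 0.30) on the array labelled serotonin and by -0.19 (error 0.31) on that labelled cortisol-serotonin.

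No other enzyme reached 2-fold on a 3T3-L1 array, where 1.39% of all genes changed on the array labelled serotonin and 1.41% on that labelled cortisol-serotonin. Ptgs2 was 0.55 higher than NT on the array labelled cortisol (error 0.13, 1.47-fold), with no overlap of their spots, which ran between 1.82 and 1.98 on C and between 1.26 and 1.47 on NT. It was 0.09 and 0.13 higher on the arrays labelled serotonin and cortisol-serotonin (error 0.11 each), and there the spots overlapped those of NT. On the array labelled cortisol Ptgs1 and Ptgis were also above NT, by 0.36 (error 0.30) and 0.47 (error 0.30), while Ptgis differed by -0.35 and -0.39 on the arrays labelled serotonin and cortisol-serotonin (error 0.29 each). The median over the 8 enzymes was 0.29 on the array labelled cortisol, beside -0.00283 over all genes measured. It was -0.20 and -0.17 on the arrays labelled serotonin and cortisol-serotonin. Other prostanoid enzymes had a median of 0.30 on the array labelled cortisol, and other lipoxygenase and leukotriene genes 0.27. That of the other phospholipases A2 was 0.08, of the arachidonate supply genes 0.12, of the receptors 0.08 and of the transporters -0.02.

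Pla2g4a was lower than the shared NT array on each treated pre-adipocyte array, by -0.33 (error 0.30) on C, -0.53 (error 0.31) on S and -0.63 (error 0.31) on CS. Alox5ap differed by 0.09 (error 0.59), -0.66 (error 0.65) and -0.31 (error 0.62). Differences of at most 1 error cannot be read as change, and those of Alox5ap on C and CS were of that size. Passing 1 error, as Pla2g4a and Alox5ap on S did, is no test of change, since the error leaves out the spread between cultures. The median of the 9 measured macrophage markers was -0.07, -0.44 and -0.18 on the same arrays, and their part in the Alox5ap values was not tested. Ptges and Ltc4s differed from NT by between -0.23 and 0.23 on these arrays.

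**Figure D5:**
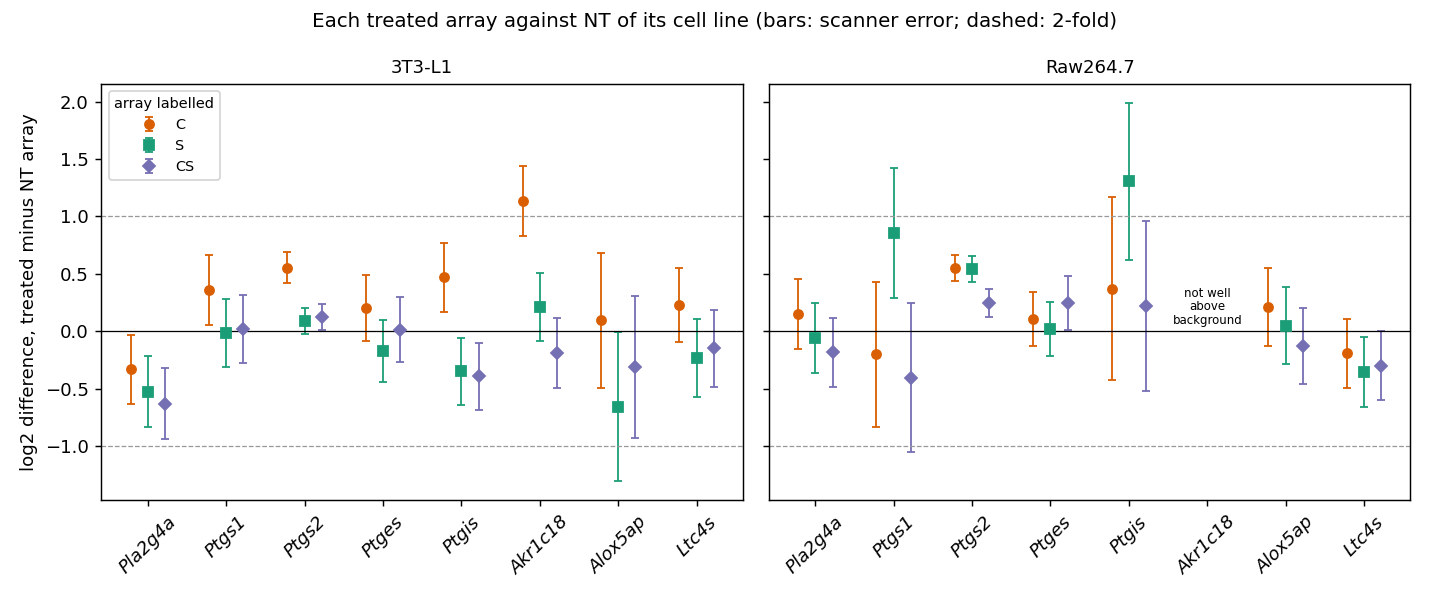
Log2 difference of each treated array from NT, in 3T3-L1 (left) and Raw264.7 (right). Colours give the array label, bars the error of the scanner software, and dashed lines a 2-fold difference. Akr1c18 on the 3T3-L1 array labelled cortisol (1.14) and Ptgis on the Raw264.7 array labelled serotonin (1.31) pass the dashed lines.

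In Raw264.7, 7 enzymes were measured. None of them reached 2-fold on the array labelled cortisol, where 0.0857% of all genes did, or on that labelled cortisol-serotonin, where 0.247% did. On the array labelled serotonin 1 enzyme differed at least 2-fold, beside 0.919% of all genes measured. This was Ptgis, at 1.31 above NT (error 0.69, 2.47-fold). In the Cy5 channel alone Ptgis was 0.94 higher there, short of 2-fold. Ptgs1 was 0.85 higher on the same array (error 0.56, 1.81-fold), against -0.20 (error 0.63) on C and -0.40 (error 0.65) on CS. On the array labelled serotonin the 11 measured fibroblast markers had a median of 0.70 above NT, with the log2 ratio of Col3a1 at -4.82 against -6.82 on NT, beside a median of -0.03 over all genes. Their part in the values of Ptgis and Ptgs1 was not tested. Another of these markers, Fstl1, was 1.17 above NT on the array labelled cortisol-serotonin, with an error of 1.18.

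Ptgs2 was above NT on each treated macrophage array, by 0.55 on C, 0.54 on S and 0.25 on CS (errors 0.11, 0.12 and 0.12). The spots of NT, between -1.95 and -1.73, did not overlap those of any treated array. All 3 differences share this NT array, and spots of an array repeat a single hybridisation, so neither shows a difference between cultures. In the Cy5 channel alone the direction held on C and CS, at 0.26 and 0.45, and turned on S, at -0.25. On that array the Cy3 level of Ptgs2 was 9.64 on the log2 scale, against 10.43 on NT. Alox5, for which the Cy5 level can be given, stood 0.80 above NT on the array labelled serotonin, and differed by -0.44 on C and -0.34 on CS. The reference signal of Alox5, not well above background, was also higher on that array, at 7.10 against 6.56 on NT. Alox5ap differed by 0.21, 0.05 and -0.13 on C, S and CS (errors 0.33 to 0.34). The macrophage markers, Itgam and Spi1, were below NT on the array labelled cortisol-serotonin, by -1.05 (error 0.32) and -1.21 (error 0.37). Ltc4s differed from NT on the 3 treated arrays by -0.19, -0.35 and -0.30 (error 0.30 each).

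A limma model that added an effect of each labelled hormone within each line, with 2 residual degrees of freedom, tested the 7 enzymes well above background on all 8 arrays. With all 8 arrays no enzyme passed for any effect or for any difference of an effect between the lines. The share of all 9041 genes called was 0.133% for serotonin in 3T3-L1 and 0 for the other effects, where 211 to 740 genes had an unadjusted p under 0.05. For serotonin in 3T3-L1, 1311 of the 9041 genes had an unadjusted p under 0.05. Alox5ap and Pla2g4a had such a p there, with effects of -0.53 (SE 0.16, adjusted p = 0.216) and -0.41 (SE 0.15, adjusted p = 0.27). Ptgs1 had one for cortisol in Raw264.7, -0.73 (SE 0.24, adjusted p = 1.00), and for its difference between the lines, 0.93 (SE 0.34, adjusted p = 0.956). Ptgis had one for the difference of the serotonin effect between the lines, -1.18 (SE 0.44, adjusted p = 0.556). This difference was -1.91 when either the Raw264.7 array labelled C or that labelled CS was left out. The serotonin effect in Raw264.7 is then the array labelled S minus NT alone, with no spread within that line. Each treatment had the same place on both slides, so treatment and position cannot be told apart.

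In other genes of the pathway, differences of 2-fold from NT were few. Dpep1 was 1.31 above NT on the 3T3-L1 array labelled serotonin and 1.44 above it on that labelled cortisol-serotonin (error 0.34 each), with 0.73 (error 0.32) on that labelled cortisol. Akr1b3, an aldose reductase that also makes prostaglandin F, was 1.01 above NT on the 3T3-L1 array labelled serotonin (error 0.21). Mgst1 was 1.04 above NT on the Raw264.7 array labelled serotonin, with an error of 0.86.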

How the data were processed

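The 8 arrays were assigned from their labels. By their labels they were read with Agilent Feature Extraction 10.5.1.1, while the study's methods name another version of that software. Each deposited scanner file holds median signal and background intensity values per spot and channel, without normalization between arrays. It also holds the software's processed signals and the log10 of their Cy5 over Cy3 ratio with its error. The deposited p-value of that ratio compares sample and reference and was not used. The authors' series matrix matched that log10 value within 0.005, which settles its scale and direction. The sample labels describe the reference as a mixture of the samples' RNA and the study's methods as RNA of untreated cells, so its composition is not settled here.

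In limma 3.58.1 (R 4.3.3) signals were corrected with normexp (offset 50) and log2 ratios normalised by loess, without control and outlier spots. Spots of a probe were averaged, and accessions of 27508 probes (69.8%) matched a RefSeq table (GRCm38.p6), used for names and sequences only. Gene values are means over those probes whose Cy5 and Cy3 both stood well above background (at least 0.5 of their spots): on all 4 arrays of at least 1 line for the line difference, on both arrays for a difference from NT, and on all 8 arrays for hormone effects. Members and lists were counted over genes measured on all 8 arrays, and a gene with no Cy5 above background in 1 line is given as a bound. No spot was saturated, and the number of arrays limits the precision. Line differences were fitted with lmFit and eBayes over 10692 genes and added hormone effects over 9041, with Benjamini-Hochberg adjustment at 0.05, after tests on simulated data. Alternatives were no background correction, processed signals, the series matrix, median centring, Cy5 alone, other filters, the brightest probe, treatment as a term, and leaving out each array.

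The enzymes and 11 gene lists (154 entries) were chosen with earlier results of these data known. The rule names all 10 enzymes, listed genes changed 2-fold from NT, the 3 highest and 3 lowest of each list among those passing between the lines, 4 glucocorticoid targets and the 5 genes closest to Ptgs2. Fads1, Acsl1, Acsl3, S100a10, Lta4h, Ptger4 and single markers of cell types were named after their values were seen.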

Additional observations from a re-analysis of the deposited data

Results flagged for a closer look

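The log2 ratio of Ptgs1 on the 3T3-L1 array labelled cortisol, 0.80, stood apart from the other 3 arrays of that line, which lay between 0.42 and 0.46. The gap was 0.91 of the whole range of the 4 arrays. Chance alone sets about 1 in 20 such groups apart, and the 4 arrays carried different treatments.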

How the results depend on the processing

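The 7 enzymes measured on all arrays kept their direction between the lines and passed under all 17 alternatives. Akr1c18 kept its direction under the 16 that could include it, and Alox5 entered only the fit with no filter. The signal of each was not well above background in 1 line, so these fits are no further support for either. The genes called numbered 5725 to 9329, beside 8249. The fold of Ptgis was 34.4 with the series matrix, beside 18.9. Median centring moved the median of all genes on the 3T3-L1 arrays by 0.60 (C), 1.08 (S) and 1.00 (CS) from NT, and put 5, 4 and 3 enzymes at least 2-fold higher on these arrays, beside 1, 0 and 0. Relative to that median, Akr1c18 was 1.02 higher on C and Pla2g4a differed by -0.08, -0.25 and -0.50. With Cy5 alone 0 enzymes were 2-fold higher on the Raw264.7 array labelled serotonin, beside 1. Of 315 differences from NT under an alternative, 276 stayed within 1 error of the value given and 29 changed sign, 14 of them under median centring. In the model of hormone effects, the difference of serotonin between the lines was -1.91 for Ptgis without the Raw264.7 array labelled C or that labelled CS. Both omissions leave the same contrast and are not separate results. Its Raw264.7 part is the array labelled S minus NT alone, with no spread within that line. The labels give no replicate numbers, and the lines were matched by treatment instead: with treatment as a term 8091 genes were called, with the same 7 enzymes among them. Genes not above background in a line give only bounds or no value.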
